A study of Rattus norvegicus with 20 samples.

Results

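Nuclear receptors are transcription factors that bind DNA, in many cases only when a small fat-soluble molecule such as a hormone, a vitamin or an oxidised sterol sits in their ligand pocket. The genes described here are 32 receptors of the family, chosen by name, without the circadian receptors and the sensors of drugs and bile acids. All 32 were present among the 32883 genes of the deposited table, each as 1 row. A gene was called expressed where it reached a scaled TPM (transcript abundance, corrected for gene length and library size, then scaled between libraries) of at least 0.5 in at least 5 libraries, and 24 of the 32 were.

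The series holds 20 liver libraries, each from 1 male rat, with 5 rats in each of 4 treatment groups. KYDS+BGZ_L rats received hydrocortisone at 25 mg/kg together with BGZ_L powder at 0.9 g/kg. KYDS rats were given hydrocortisone alone (25 mg/kg), BGZ_L rats the powder alone (0.9 g/kg), and CON rats 0.5% CMC-Na (sodium carboxymethylcellulose, an inert thickener). The series title names Psoraleae Fructus and kidney-yang deficiency syndrome, a traditional diagnosis that repeated hydrocortisone is used to model. The sources used here do not state the strain, the age, how long treatment lasted, the hour of collection, what BGZ_L is, or whether the treated rats also received CMC-Na.

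In the liver, HNF4 alpha keeps up the gene programme of the hepatocyte, LXR senses oxysterols, and the retinoid X receptors (RXR) are the shared partners with which LXR, retinoic acid, thyroid hormone, vitamin D and PPAR receptors pair on DNA. Many of these receptors recruit corepressors without ligand and coactivators with it. Hydrocortisone itself acts through the glucocorticoid receptor, and the mineralocorticoid receptor, one of the 32 genes, also binds it.

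The promoters shown are those of the receptors that rose with hydrocortisone in both comparisons (Rara and Nr2f6) and of 2 receptors that fell in 1 of them (Thra and Esrrg). Each is the 250 bases before an annotated start, from RefSeq on build GRCr8, 5' to 3' on the strand of the gene. A sequence was found for 27 of the 32 genes. Capitals mark matches on either strand to GGGCGG, the GC box. The windows lie at chr10:84411217-84411466 (plus strand) for Rara, chr16:18087450-18087699 (minus strand) for Nr2f6, chr10:84197891-84198140 (plus strand) for Thra and chr13:101744485-101744734 (plus strand) for Esrrg.
Rara: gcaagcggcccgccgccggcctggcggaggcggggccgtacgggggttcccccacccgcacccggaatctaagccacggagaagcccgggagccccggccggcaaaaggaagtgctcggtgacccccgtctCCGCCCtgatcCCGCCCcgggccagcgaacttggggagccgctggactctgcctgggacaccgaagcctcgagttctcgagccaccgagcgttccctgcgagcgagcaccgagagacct
Nr2f6: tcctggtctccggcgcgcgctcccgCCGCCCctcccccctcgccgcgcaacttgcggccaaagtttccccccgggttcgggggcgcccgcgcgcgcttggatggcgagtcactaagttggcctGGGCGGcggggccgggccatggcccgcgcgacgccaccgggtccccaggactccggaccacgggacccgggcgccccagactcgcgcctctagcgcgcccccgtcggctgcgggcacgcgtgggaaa
Thra: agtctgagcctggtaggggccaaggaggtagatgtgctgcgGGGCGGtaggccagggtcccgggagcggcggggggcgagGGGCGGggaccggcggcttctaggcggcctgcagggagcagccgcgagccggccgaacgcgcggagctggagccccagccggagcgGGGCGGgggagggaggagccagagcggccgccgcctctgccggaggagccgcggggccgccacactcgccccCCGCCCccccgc
Esrrg: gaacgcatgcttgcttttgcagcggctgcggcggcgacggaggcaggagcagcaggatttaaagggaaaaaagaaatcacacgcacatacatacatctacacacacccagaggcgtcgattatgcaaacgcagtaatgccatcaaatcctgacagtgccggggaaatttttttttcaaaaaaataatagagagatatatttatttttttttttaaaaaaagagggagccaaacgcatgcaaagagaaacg

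GGGCGG occurred 2 times in the Rara window, 2 times in that of Nr2f6 and 4 times in that of Thra and was not in that of Esrrg. Of 33469 rat promoter windows of the same length, 30.5% held GGGCGG. The other motifs, 4 in all, were searched on both strands, namely AGAACA (a glucocorticoid receptor core motif), AGGTCA (the core motif of many nuclear receptors), CACGTG (an E-box) and TATAAA (the TATA box), which 17.5%, 14.1%, 5.59% and 12.9% of all windows held. None of these 4 motifs was in the windows of the 6 receptors that passed a test below. A match is a run of letters and not a measured site.

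The libraries differed in composition before any gene is compared. The 13 genes of mitochondrial DNA took 26.6% to 70.2% of TPM in KYDS+BGZ_L livers, 19.2% to 68.9% in KYDS livers, 39.6% to 81.9% in BGZ_L livers and 65.6% to 90.1% in CON livers. The mean share was 42.4% ± 18.0 in KYDS and 75.1% ± 10.2 in CON livers (SD, n = 5 each, 2-sided exact permutation p = 0.0238, adjusted over 4 comparisons 0.0952). It was 48.9% ± 17.7 in KYDS+BGZ_L and 67.3% ± 17.3 in BGZ_L livers (exact permutation p = 0.135, adjusted 0.2698). The lowest shares were in KYDS 3 (19.2%), KYDS+BGZ_L 1 (26.6%) and KYDS+BGZ_L 4 (35.1%), and results are also given without these 3 libraries. KYDS 5 was close behind at 35.25% and was kept. All 3 libraries left out are of hydrocortisone-treated livers, so those groups become smaller. Whether a call that ended without them reflects composition or fewer livers was not tested. All 8 hepatocyte markers were expressed, and their summed scaled TPM was 8806 to 44374 (median 22819) in KYDS+BGZ_L, 6332 to 62535 (median 16902) in KYDS, 5253 to 6004 (median 5444) in BGZ_L and 5334 to 9082 (median 6658) in CON livers. All 8 macrophage markers were expressed too, with summed medians of 107.2, 95.9, 70.2 and 73.6 in the same order of groups and a highest value of 830.0 in a BGZ_L liver. All 3 pancreas markers were expressed, at summed levels of 30.8 to 46.6 in KYDS+BGZ_L, 13.3 to 46.1 in KYDS, 20.3 to 37.6 in BGZ_L and 11.1 to 21.2 in CON livers, with higher medians in each hydrocortisone-treated group than in its comparison group (36.99 against 23.9, and 27.2 against 12.8). The erythroid markers had summed medians of 1202, 1589, 1122 and 695.8, the stellate markers 48.0, 39.1, 38.6 and 37.05, the endothelial markers 44.1, 42.5, 45.5 and 46.1, and the cholangiocyte markers 9.02, 6.94, 2.56 and 9.55 in KYDS+BGZ_L, KYDS, BGZ_L and CON livers. None of the 5 lymphocyte, 3 adipocyte and 2 muscle markers analysed passed the filter, and the adipocyte hormone gene Lep was at 0 throughout. The part of cell composition in the results was not tested. In bulk liver, fewer cells of a type and less RNA per cell cannot be told apart.

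Hnf4a was the most abundant of the 32 receptors, at a mean of 50.1 scaled TPM over 20 livers, followed by Nr1h3 (LXR alpha) at 33.1 and Rxra at 25.3. Esr1, the estrogen receptor alpha, averaged 17.7, Nr2f6 17.6, Esrrg 14.5, Rarb 10.8 and Thrb 10.2 scaled TPM. The other 16 expressed receptors averaged 9.87 (Nr1h2, LXR beta) down to 0.739 (Rarg). The other 8 receptors were not expressed by the filter. Of these, Hnf4g, the paralogue of Hnf4a, reached 0.5 scaled TPM in 2 BGZ_L livers only, at 5.44 in BGZ_L 3 and 0.619 in BGZ_L 1, and was listed at 0 in 4 libraries, while Nr2f1 and Nr4a2 stayed at or below 0.694 and 0.539 scaled TPM. Vdr, the vitamin D receptor, reached at most 0.221, Nr4a3 at most 0.0249, and Pgr, the progesterone receptor, was listed above 0 in 1 library. Esr2 (estrogen receptor beta) and Esrrb were listed at 0 in all 20 libraries.

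**Figure D1:**
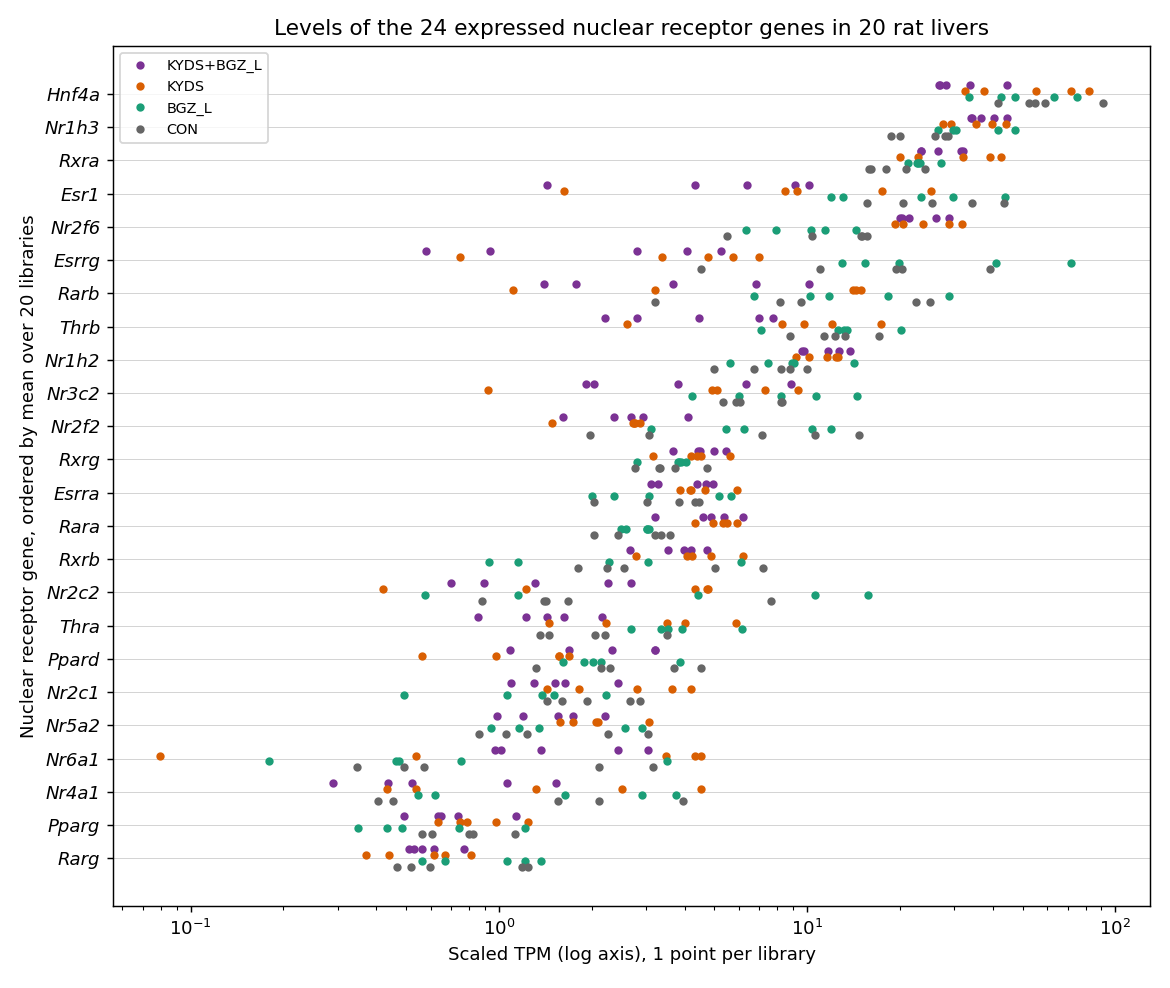
Scaled TPM (log axis) of the 24 expressed receptor genes in 20 rat livers, 1 point per library, coloured by group, with genes ordered by their mean. Hnf4a lies at the top between 26.8 and 91.4, while Esrrg spreads from 0.578 to 71.6 with the hydrocortisone-treated livers at its low end.

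Within families, with totals taken over the 32 receptors alone, 1 member usually carried most of the TPM. Rxra made up a mean of 76.2% ± 3.4, 76.7% ± 8.4, 78.8% ± 6.3 and 72.4% ± 2.7 of the RXR total in KYDS+BGZ_L, KYDS, BGZ_L and CON livers (SD, n = 5 each). Nr1h3 made up 76.7% ± 3.3, 75.6% ± 3.7, 79.0% ± 8.4 and 75.9% ± 4.2 of the LXR total in the same order of groups. The group means also stayed within a few points in the HNF4 family (97.3% to 99.9% for Hnf4a). They ranged more widely for Thrb (72.8% to 85.3%), Esr1 among steroid receptors (57.1% to 79.1%), Ppard (57.7% to 77.8%) and Nr4a1 (79.6% to 91.2%). Nr2c2 averaged 46.7% to 65.9% of the testicular receptors, with Nr2c1 holding the larger mean share in KYDS+BGZ_L, KYDS and CON livers. By mean scaled TPM, however, Nr2c2 was above Nr2c1 in KYDS (3.10 against 2.77) and in CON livers (2.60 against 2.09). The PPAR total left out Ppara, which averaged 2.64, 6.98, 11.3 and 10.5 scaled TPM in KYDS+BGZ_L, KYDS, BGZ_L and CON livers. Ppard averaged less in each group, at 2.31, 1.27, 2.30 and 2.80. The steroid receptor total left out Nr3c1, the glucocorticoid receptor gene. Nr2f6, Rara with Rarb, and Esrrg are given in full and were chosen after their values were seen. Nr2f6 was 88.6% ± 4.0 of the COUP-TF total in KYDS+BGZ_L and 90.0% ± 1.9 in KYDS livers, but 57.1% ± 18.7 in BGZ_L and 62.0% ± 21.8 in CON livers. Rara was 51.7% ± 21.4 of the retinoic acid receptor total in KYDS+BGZ_L and 42.4% ± 25.0 in KYDS livers, against 17.2% ± 7.3 in BGZ_L and 22.6% ± 15.4 in CON livers. Rarb was 42.1% ± 23.4 of the same total in KYDS+BGZ_L and 53.3% ± 26.3 in KYDS livers, against 76.4% ± 10.8 in BGZ_L and 72.0% ± 16.9 in CON livers. Esrrg was 36.7% ± 21.1 of the estrogen-related receptor total in KYDS+BGZ_L and 44.8% ± 17.7 in KYDS livers, against 85.7% ± 10.2 in BGZ_L and 78.1% ± 17.5 in CON livers. The shares are given as a description, with no test.

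The comparisons of hydrocortisone are KYDS+BGZ_L against BGZ_L, in rats that all received the powder, and KYDS against CON, in rats that did not. With the powder, Rara and Nr2f6 rose and Thra, Thrb, Esr1 and Esrrg fell. Without it, Rara and Nr2f6 rose and no receptor fell past the threshold. Each value was tested with limma on log2(scaled TPM + 0.5), with Benjamini-Hochberg adjustment over 11869 genes and a threshold of 0.05. In KYDS+BGZ_L against BGZ_L, 6 of 24 receptors passed (25%, against 17.4% of all genes tested), 2 higher (8.82% of all genes were) and 4 lower (8.55% of all genes were). In KYDS against CON, 2 of 24 passed (8.33%, against 6.27% of all genes), both higher (3.25% of all genes). With no scaling of TPM, 3 and 12 passed, the 12 all higher. The groups did not overlap for 5 of 24 receptors with the powder (20.8%, against 13.2% of all genes) and for 2 of 24 without it (8.33%, against 6.49%). The shares of receptors that passed are thus not far above those of all genes. Their median log2 fold change was -0.07 with the powder (0.06 over all genes) and 0.26 without it (0.05 over all genes).

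Rara encodes retinoic acid receptor alpha, which binds all-trans retinoic acid and pairs with RXR. It stood at 5.36, 4.58, 3.20, 6.17 and 4.86 scaled TPM in KYDS+BGZ_L livers, against 2.58, 3.02, 3.07, 2.48 and 3.03 in BGZ_L livers. In KYDS livers it stood at 5.91, 4.96, 5.51, 4.33 and 5.33 scaled TPM, against 3.36, 3.59, 2.04, 3.20 and 2.43 in CON livers. Every hydrocortisone-treated liver lay above every liver of its comparison group, with KYDS+BGZ_L 3 only just above BGZ_L 3. Rara rose by a log2 fold change of 0.65 ± 0.19 (SE, limma adjusted p = 0.0238) with the powder, and by 0.75 ± 0.19 (limma adjusted p = 0.0289) without it. The interaction, which tests whether these differ, was -0.10 ± 0.27 (limma adjusted p = 0.999). Without the 3 libraries of lowest mitochondrial share, both calls ended, at 0.49 (limma adjusted p = 0.206) and 0.72 (limma adjusted p = 0.0717). Leaving out 1 liver also ended the call with the powder for KYDS+BGZ_L 1, KYDS+BGZ_L 4 or BGZ_L 4 (highest limma adjusted p = 0.0787), and the call without it for KYDS 1, KYDS 3, KYDS 5 or CON 3 (highest limma adjusted p = 0.0684).

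The related receptor genes Rarb and Rarg did not pass in either comparison. Rarb, a gene that retinoic acid itself induces, stood at 1.78, 6.81, 10.1, 1.40 and 3.67 scaled TPM in KYDS+BGZ_L livers, against 10.2, 11.8, 28.8, 18.3 and 6.70 in BGZ_L livers. It stood at 14.4, 14.9, 1.11, 14.1 and 3.21 scaled TPM in KYDS livers, against 3.21, 22.5, 25.1, 9.58 and 8.18 in CON livers. The groups overlapped in both comparisons, and the lowest values were in KYDS 3, KYDS+BGZ_L 4 and KYDS+BGZ_L 1, the libraries of lowest mitochondrial share. The log2 fold change of Rarb was -1.71 ± 0.67 (limma adjusted p = 0.0821) with the powder and -0.65 ± 0.67 (limma adjusted p = 0.582) without it. With the powder Rarb did pass, as lower, in 2 of 33 alternatives, namely with only the 2 groups in the fit and without KYDS 3. Rarg had -0.40 (limma adjusted p = 0.215) and -0.24 (limma adjusted p = 0.524).

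Nr2f6 encodes EAR2, an orphan receptor of the COUP-TF group, which mostly represses transcription. Its levels were 28.9, 20.01, 20.3, 26.2 and 21.3 scaled TPM in KYDS+BGZ_L livers, against 14.4, 7.95, 6.34, 10.3 and 11.4 in BGZ_L livers. Without the powder they were 23.8, 19.2, 31.7, 20.4 and 28.8 scaled TPM in KYDS livers, against 15.6, 10.4, 5.51, 14.9 and 15.03 in CON livers. All 10 hydrocortisone-treated livers lay above all 10 others, so the groups did not overlap in either comparison. Nr2f6 rose by a log2 fold change of 1.21 ± 0.28 (limma adjusted p = 0.00749) with the powder, a fold change of 2.31, and by 1.05 ± 0.28 (limma adjusted p = 0.0338) without it, a fold change of 2.06. The interaction was 0.16 ± 0.39 (limma adjusted p = 0.999). Without the 3 libraries of lowest mitochondrial share the values were 1.06 (limma adjusted p = 0.081) and 0.94 (limma adjusted p = 0.102). Leaving out any 1 liver kept the call with the powder (highest limma adjusted p = 0.0261), while the call without it ended without KYDS 1, KYDS 3, KYDS 5, CON 2 or CON 3 (highest limma adjusted p = 0.0909).

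Its relative Nr2f2 (COUP-TFII), which venous endothelium and mesenchymal cells also make, did not pass. It ranged over 1.61 to 4.09 scaled TPM in KYDS+BGZ_L and 3.12 to 11.9 in BGZ_L livers, with a log2 fold change of -1.20 ± 0.42 (limma adjusted p = 0.0554). Its range was 1.49 to 2.87 scaled TPM in KYDS livers and 1.98 to 14.7 in CON livers, with -1.13 ± 0.42 (limma adjusted p = 0.110). Nr2f2 did pass, as lower, in some alternatives. With the powder these were only the 2 groups in the fit and a filter of scaled TPM at least 1 in at least 10 libraries. Leaving out KYDS+BGZ_L 3, BGZ_L 1, CON 2 or CON 4 alone did so too. Without the powder it passed when CON 4 was left out.

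**Figure D2:**
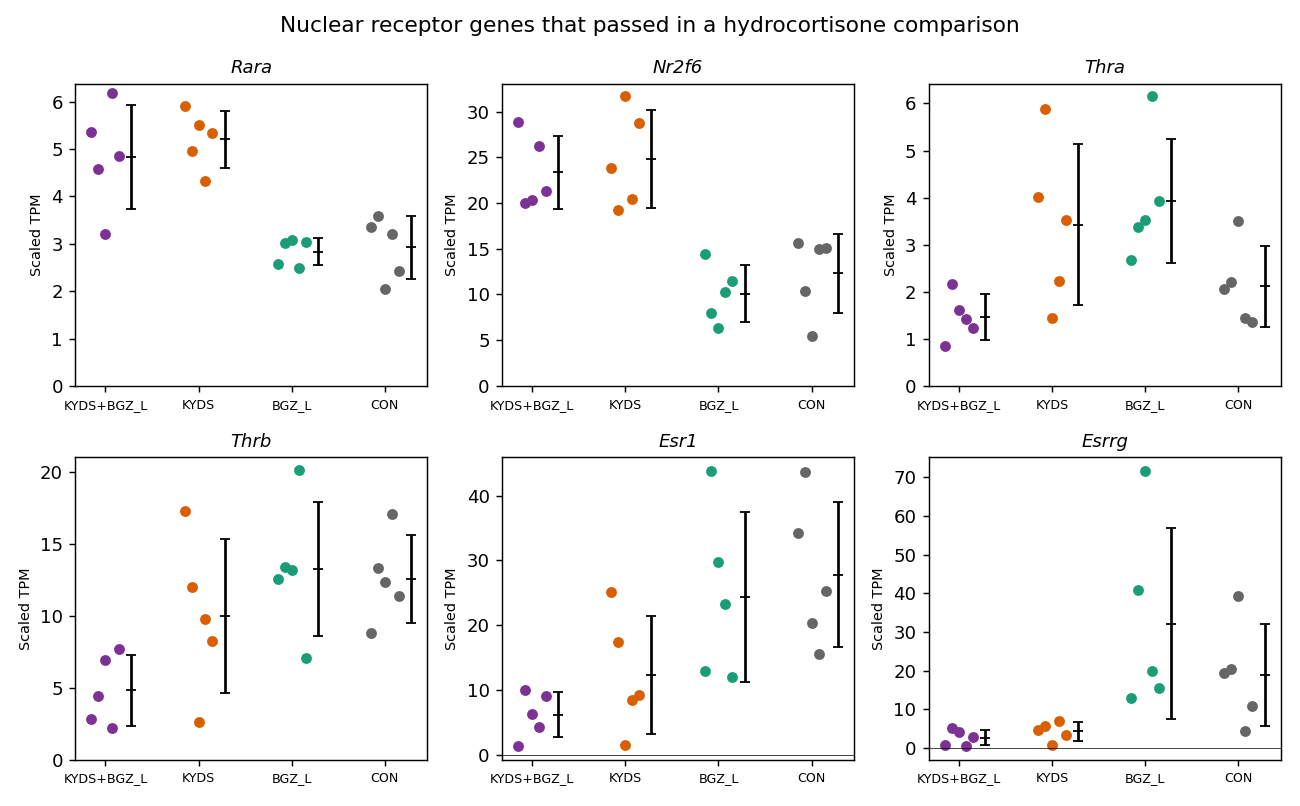
Scaled TPM per liver of the 6 receptor genes that passed in a hydrocortisone comparison, 1 point per library, with mean and SD (n = 5) beside each group. Rara and Nr2f6 are high in KYDS+BGZ_L and KYDS livers, and Esrrg lies at or below 6.97 in both.

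Esrrg, the estrogen-related receptor gamma, an orphan receptor that drives genes of mitochondrial energy metabolism and, in mouse liver, of gluconeogenesis, changed most. It stood at 0.933, 5.25, 4.08, 0.578 and 2.81 scaled TPM in KYDS+BGZ_L livers, against 13.0, 41.0, 71.6, 19.9 and 15.5 in BGZ_L livers. Without the powder it stood at 4.75, 5.76, 0.750, 6.97 and 3.38 scaled TPM in KYDS livers, against 19.5, 20.4, 39.3, 4.51 and 10.97 in CON livers. The groups were apart with the powder, while CON 4 lay within the range of KYDS livers without it. Esrrg fell with the powder, by a log2 fold change of -3.31 ± 0.61 (limma adjusted p = 0.00257), and had -1.93 ± 0.61 (limma adjusted p = 0.0642) without it. The interaction was -1.39 ± 0.87 (limma adjusted p = 0.999). The call with the powder held in all 33 alternatives, between -3.60 and -2.42, and without the 3 libraries of lowest mitochondrial share it was -2.55 (limma adjusted p = 0.0357). Esrra, its relative, did not pass, at 0.22 ± 0.26 (limma adjusted p = 0.601) with the powder and 0.36 ± 0.26 (limma adjusted p = 0.420) without it.

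Esr1, which binds estradiol and in the liver shapes lipid metabolism and sex-biased expression, stood at 1.43, 10.1, 6.36, 4.34 and 9.11 scaled TPM in KYDS+BGZ_L livers, against 13.0, 43.8, 29.8, 23.4 and 12.0 in BGZ_L livers. In KYDS livers Esr1 was at 25.1, 17.4, 1.63, 8.45 and 9.29 scaled TPM, against 34.2, 43.6, 20.4, 15.6 and 25.4 in CON livers. All 5 KYDS+BGZ_L livers lay below all 5 BGZ_L livers, but KYDS 1 and KYDS 2 overlapped the CON range. Esr1 fell by a log2 fold change of -1.94 ± 0.57 (limma adjusted p = 0.0254) with the powder and had -1.46 ± 0.57 (limma adjusted p = 0.125) without it, with an interaction of -0.48 ± 0.81 (limma adjusted p = 0.999). The call ended without the 3 libraries of lowest mitochondrial share (-1.30, limma adjusted p = 0.114). It also ended without KYDS+BGZ_L 1, KYDS+BGZ_L 4, BGZ_L 2 or BGZ_L 3 alone (highest limma adjusted p = 0.0852). Nr3c2, the mineralocorticoid receptor, did not pass. It ranged over 1.92 to 8.85 scaled TPM in KYDS+BGZ_L and 4.24 to 14.5 in BGZ_L livers (-0.95 ± 0.46, limma adjusted p = 0.163), and over 0.921 to 9.31 in KYDS and 5.34 to 8.30 in CON livers (-0.50 ± 0.46, limma adjusted p = 0.531).

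Thrb encodes thyroid hormone receptor beta, the main thyroid hormone receptor of hepatocytes, and made up 72.8% to 85.3% of the thyroid hormone receptor total on average per group. It stood at 2.80, 4.45, 6.96, 2.21 and 7.73 scaled TPM in KYDS+BGZ_L livers, against 12.5, 13.4, 13.2, 20.1 and 7.08 in BGZ_L livers. Its values were 17.3, 12.0, 2.60, 9.80 and 8.28 scaled TPM in KYDS livers, against 8.79, 13.3, 12.3, 17.1 and 11.4 in CON livers. KYDS+BGZ_L 5 lay above BGZ_L 5, and the KYDS and CON ranges overlapped widely. Thrb fell by a log2 fold change of -1.43 ± 0.40 (limma adjusted p = 0.0203) with the powder and had -0.49 ± 0.40 (limma adjusted p = 0.477) without it. The interaction was -0.94 ± 0.57 (limma adjusted p = 0.999), and without the 3 libraries of lowest mitochondrial share the value with the powder was -0.94 (limma adjusted p = 0.106). The call also ended without KYDS+BGZ_L 1, KYDS+BGZ_L 4 or BGZ_L 4 alone (highest limma adjusted p = 0.068).

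Thra, the thyroid hormone receptor alpha gene, showed the lowest p of the 24 receptors in the interaction. It was at 0.855, 2.17, 1.62, 1.43 and 1.23 scaled TPM in KYDS+BGZ_L livers, against 2.68, 3.37, 3.53, 6.16 and 3.93 in BGZ_L livers. It was at 4.02, 5.87, 1.45, 2.23 and 3.52 scaled TPM in KYDS livers, against 2.05, 2.20, 3.50, 1.45 and 1.36 in CON livers. All KYDS+BGZ_L livers lay below all BGZ_L livers, and the KYDS and CON groups overlapped. Thra fell by a log2 fold change of -1.17 ± 0.30 (limma adjusted p = 0.0138) with the powder, had 0.52 ± 0.30 (limma adjusted p = 0.301) without it, and had an interaction of -1.69 ± 0.43 (limma adjusted p = 0.667), which did not pass. Without the 3 libraries of lowest mitochondrial share, the value with the powder was -0.98 (limma adjusted p = 0.0911). Leaving out any 1 liver kept the call (highest limma adjusted p = 0.0467).

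In RefSeq, Thra overlaps Med24 and Nr1d1 (REV-ERB alpha, a circadian repressor), and whether the counting used strand is not stated, so reads from the overlap cannot be told apart. Nr1d1 stood at 0.626, 1.15, 1.496, 1.67 and 0.625 scaled TPM in KYDS+BGZ_L livers, against 6.09, 6.21, 7.70, 12.5 and 10.7 in BGZ_L livers. It stood at 5.82, 9.51, 6.82, 2.85 and 6.12 scaled TPM in KYDS livers, against 5.64, 4.19, 6.50, 4.79 and 3.16 in CON livers. For Nr1d1 all 5 KYDS+BGZ_L livers lay below the other 15, whereas for Thra they overlapped the KYDS and CON groups. Over all 20 livers, with group differences included, Thra and Nr1d1 rose and fell together on the log2 scale. Pearson's r was 0.79 and Spearman's rho was 0.79. Nr1d1 fell by -2.50 ± 0.30 (limma adjusted p = 4.5e-05) with the powder and passed in the interaction (-2.78 ± 0.42, limma adjusted p = 0.0112). The part of Nr1d1 reads in the value of Thra was not tested.

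**Figure D3:**
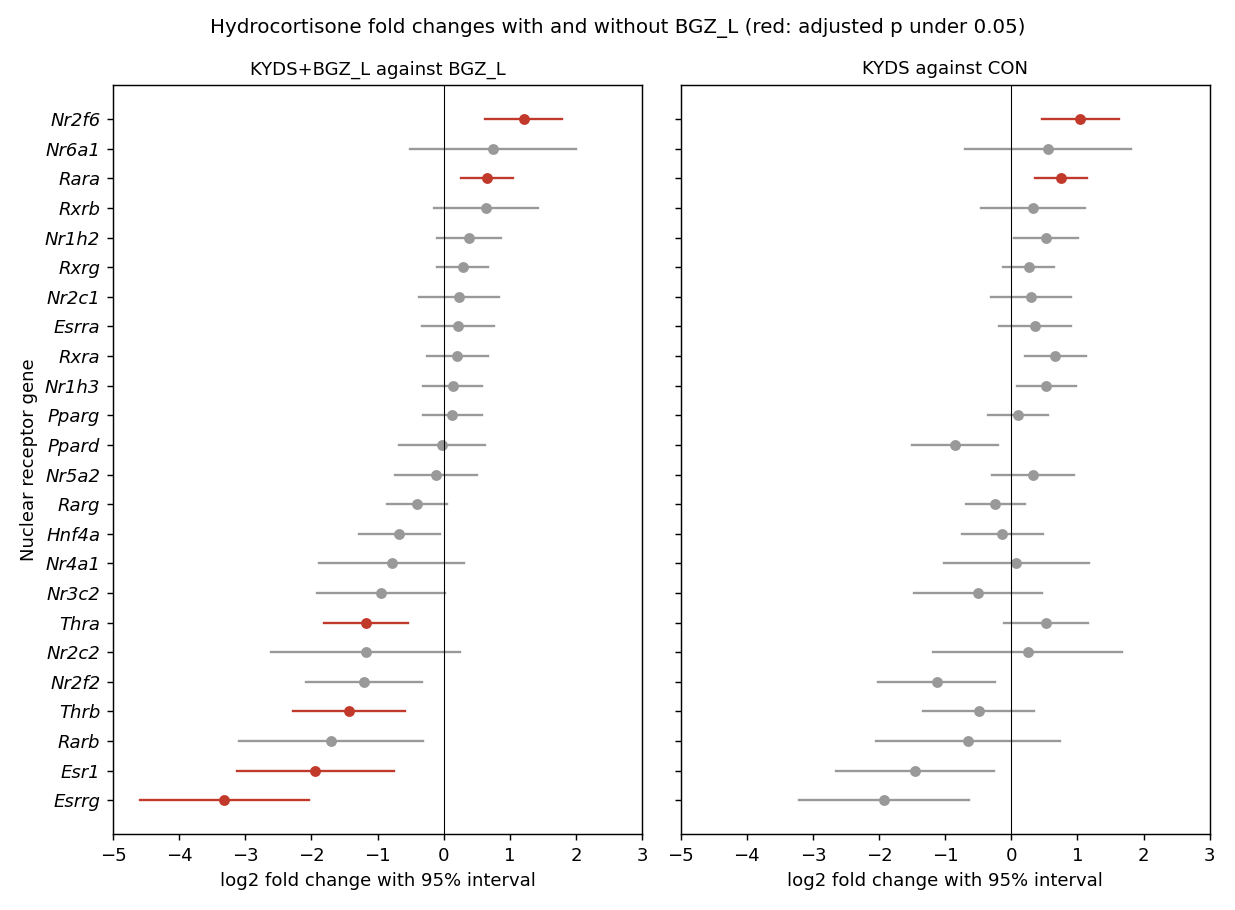
Log2 fold change (95% interval) of the 24 expressed receptor genes with hydrocortisone, with the powder (left, KYDS+BGZ_L against BGZ_L) and without it (right, KYDS against CON). Red marks the genes that passed, and Esrrg has the lowest value in both panels, -3.31 and -1.93.

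The 3 most abundant receptors did not pass in any comparison. Hnf4a stood at 26.8, 44.6, 33.8, 26.9 and 28.3 scaled TPM in KYDS+BGZ_L livers, against 33.6, 75.2, 42.5, 63.3 and 47.1 in BGZ_L livers. It was at 72.0, 82.4, 32.4, 55.1 and 37.6 scaled TPM in KYDS livers, against 55.0, 91.4, 59.2, 52.5 and 41.5 in CON livers. The ranges overlapped in both, and 4 of the 5 KYDS+BGZ_L livers lay at or below 33.8. Its log2 fold change was -0.67 ± 0.29 (limma adjusted p = 0.122) with the powder and -0.14 ± 0.29 (limma adjusted p = 0.809) without it.

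Nr1h3, the oxysterol receptor that induces cholesterol export and fatty acid synthesis, was at 44.4, 34.1, 36.8, 40.4 and 34.2 scaled TPM in KYDS+BGZ_L livers, against 26.5, 47.1, 29.7, 30.4 and 41.6 in BGZ_L livers. It was at 27.5, 29.2, 39.7, 35.4 and 44.1 scaled TPM in KYDS livers, against 19.98, 18.8, 28.1, 26.0 and 28.5 in CON livers. CON livers were the lowest of the 4 groups on average. The log2 fold change was 0.14 ± 0.21 (limma adjusted p = 0.686) with the powder and 0.53 ± 0.21 (limma adjusted p = 0.139) without it. In RefSeq the span of Acp2 overlaps that of Nr1h3, as Slc39a7 does with Rxrb and Trmt112 with Esrra. Exons and strands of these pairs were not compared, and whether the counting used strand is not stated. It is thus unknown whether reads of these pairs were kept apart. Non-coding RNA genes overlap other receptors too, among them Rara, Thrb, Esr1 and Esrrg, which passed.

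Rxra, the main partner receptor, was at 31.97, 26.5, 23.4, 31.5 and 23.4 scaled TPM in KYDS+BGZ_L livers, against 21.3, 22.8, 22.6, 23.3 and 27.2 in BGZ_L livers. In KYDS livers it was at 19.9, 22.9, 39.2, 32.1 and 42.5 scaled TPM, against 15.8, 16.2, 20.9, 24.2 and 18.0 in CON livers. KYDS 3, KYDS 4 and KYDS 5 lay above all CON livers and the other 2 within their range. Rxra had a log2 fold change of 0.21 ± 0.22 (limma adjusted p = 0.545) with the powder and 0.67 ± 0.22 (limma adjusted p = 0.0728) without it, and Rxrb and Rxrg lay between 0.26 and 0.64 in both comparisons without passing. Without the powder Rxra did pass in 3 of 33 alternatives, namely with no scaling of TPM, without KYDS 1 and without CON 4. Nr1h3 did so in 1, with no scaling.

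The other receptors at lower levels did not pass either. Ppard, the fatty acid sensor PPAR delta, ranged over 0.563 to 1.69 scaled TPM in KYDS and 1.32 to 4.54 in CON livers (-0.85 ± 0.31, limma adjusted p = 0.102), but had -0.02 ± 0.31 (limma adjusted p = 0.971) with the powder. Nr1h2 ranged over 9.21 to 12.6 scaled TPM in KYDS and 4.97 to 9.98 in CON livers (0.53 ± 0.23, limma adjusted p = 0.167), and had 0.38 ± 0.23 (limma adjusted p = 0.27) with the powder. Nr5a2 (LRH-1, an inducer of bile acid synthesis), Pparg (the adipogenic PPAR gamma), Nr2c1 and Nr2c2 (the testicular receptors), Nr4a1 (an immediate-early orphan receptor) and Nr6a1 (germ cell nuclear factor) had log2 fold changes from -1.18 to 0.75 with the powder and from 0.07 to 0.55 without it, and none passed.

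The powder was compared with and without hydrocortisone. No receptor passed in KYDS+BGZ_L against KYDS, where 0.126% of all genes did (0.059% higher and 0.0674% lower), nor in BGZ_L against CON, where 0% did. By limma's unadjusted p under 0.05, 3 of 24 receptors (12.5%, against 3.41% of all genes) were below it in the comparison of KYDS+BGZ_L with KYDS, and 2 of 24 (8.33%, against 6.02%) in that of BGZ_L with CON. The 3 were Thra at -0.92 ± 0.30 (limma adjusted p = 0.724), Hnf4a at -0.73 ± 0.29 (limma adjusted p = 1) and Thrb at -0.91 ± 0.40 (limma adjusted p = 1). The other 2 were Thra at 0.77 ± 0.30 (limma adjusted p = 0.783) and Nr1h3 at 0.51 ± 0.21 (limma adjusted p = 0.784). In the interaction no receptor passed, against 0.0253% of all genes (0.00843% higher and 0.0169% lower), and 1 of 24 (4.17%, against 3.77% of all genes), Thra, had an unadjusted p under 0.05. No difference of the 2 hydrocortisone comparisons was therefore shown for any receptor.

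Some receptors moved with library composition inside the groups as well. After the group means were removed, each library's composition, taken as log2 of nuclear over mitochondrial TPM, was related to 3 of 24 receptors (permutation within groups, n = 20, adjusted over 24). The share of all genes related in this way was not computed, so whether 3 of 24 is many cannot be said. For Esrrg, Pearson's r was -0.75 (permutation p = 0.00132, adjusted 0.0158), Spearman's rho was -0.77 (permutation p = 0.00086, adjusted 0.0103), and r was -0.71 without KYDS 3 and CON 2, the 2 libraries farthest from the median. For Nr2f6, r was 0.68 (permutation p = 0.00121, adjusted 0.0158), rho was 0.75 (permutation p = 0.00043, adjusted 0.0103), and r was 0.68 without those libraries. Rarb had an r of -0.70 (permutation p = 0.00218, adjusted 0.0174) and a rho of -0.62 (permutation p = 0.00862, adjusted 0.069), with r at -0.58 without those libraries. Hnf4a and Esr1 came next, with r at -0.62 (permutation p = 0.00911, adjusted 0.0547) and -0.60 (permutation p = 0.0152, adjusted 0.073), and did not pass. For Rara, r was 0.18 (permutation p = 0.487, adjusted 0.688). With this ratio as a covariate, Esrrg (-2.42, limma adjusted p = 0.00747) and Nr2f6 (0.88, limma adjusted p = 0.0417) still passed with the powder, and no receptor passed without it. The part of composition in the fold changes was not tested further.

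**Figure D4:**
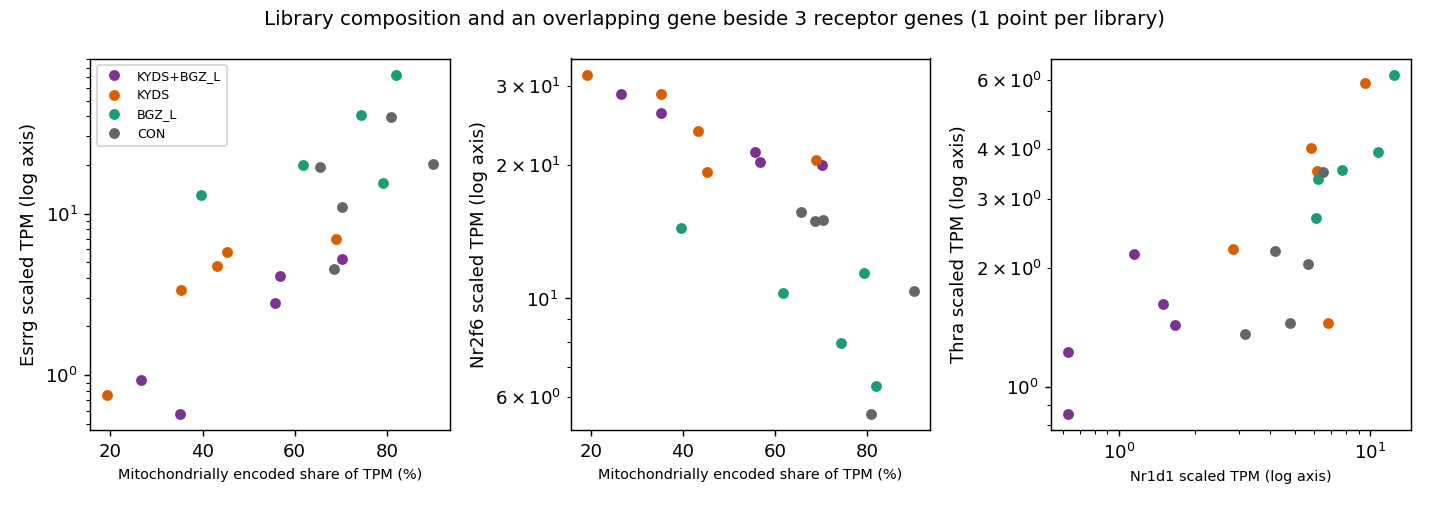
Scaled TPM (log axis) of Esrrg and Nr2f6 against the mitochondrially encoded share of TPM (%), and of Thra against Nr1d1 (both axes log), 1 point per library in 20 livers. KYDS 3, KYDS+BGZ_L 1 and KYDS+BGZ_L 4, with shares of 19.2%, 26.6% and 35.1%, have the lowest Esrrg levels.

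Genes that work with these receptors were taken from 9 lists chosen with results of these data known, and are described by counts, to be read beside the 8.82% of all genes that were higher and 8.55% lower with the powder, and the 3.25% higher and 3.02% lower without it. Counts are also given for 4 alternatives, namely no scaling of TPM, TPM recomputed over nuclear genes, composition as a covariate, and leaving out the 3 libraries of lowest mitochondrial share. Of 12 expressed coactivators, none rose and 2 fell in each hydrocortisone comparison. Ncoa3 (SRC-3) fell by -2.20 ± 0.42 (limma adjusted p = 0.00284) with the powder and by -1.54 ± 0.42 (limma adjusted p = 0.0369) without it. Ppargc1a, the coactivator PGC-1 alpha of the estrogen-related receptors and HNF4 alpha, fell with the powder (-2.99 ± 0.63, limma adjusted p = 0.0047) and had -1.54 ± 0.63 (limma adjusted p = 0.140) without it, where Carm1, a histone methyltransferase, fell (-0.72 ± 0.21, limma adjusted p = 0.0467). The median of this list was -0.57 with the powder and -0.27 without it, against 0.06 and 0.05 over all genes. With no scaling of TPM the list's medians were 0.06 and 0.50, and 2 coactivators rose without the powder and none fell. Without the powder no coactivator passed in the other 3 alternatives, while with it 2, 2 and 1 fell. Of 9 corepressors, Nrip1 rose (0.64 ± 0.18, limma adjusted p = 0.0177) and Ncor1 fell (-1.06 ± 0.36, limma adjusted p = 0.0452) with the powder. Nrip1 lay near the filter, at 0.419 to 0.539 scaled TPM in KYDS+BGZ_L and 0 to 0.289 in BGZ_L livers. Without the powder Gps2 fell (-0.98 ± 0.28, limma adjusted p = 0.0433). With no scaling 2 corepressors rose with the powder, 5 rose without it and none fell. In the other 3 alternatives no corepressor passed in either comparison.

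Among 14 expressed targets of HNF4 alpha or LRH-1, 8 rose with the powder and 6 without it, and none fell, with median log2 fold changes of 1.65 and 1.37. With the powder these included Mttp (1.83 ± 0.39, limma adjusted p = 0.00506), which loads lipid onto lipoproteins, the liver transcription factor gene Foxa2 (1.72 ± 0.38, limma adjusted p = 0.00636) and the apolipoprotein genes Apoa4 (2.88 ± 0.70, limma adjusted p = 0.0098) and Apoc3 (2.25 ± 0.55, limma adjusted p = 0.00983). Without it they included G6pc, the last enzyme of gluconeogenesis (5.83 ± 0.98, limma adjusted p = 0.00261), Cyp8b1 of bile acid synthesis (2.72 ± 0.54, limma adjusted p = 0.0096), Ttr (2.39 ± 0.61, limma adjusted p = 0.0302) and Mttp (1.49 ± 0.39, limma adjusted p = 0.0323). G6pc was listed at 0 in 3 of 5 CON livers and reached 22.7 scaled TPM in another. The size of its fold change thus depends on the 0.5 added before log2. Of the listed genes, 3 are also hepatocyte markers, whose summed level was higher in the hydrocortisone-treated groups. With the powder, 9 of 14 rose with no scaling, 7 over nuclear genes, 4 with the covariate and 0 without the 3 libraries. Without the powder, 13, 2, 0 and 3 rose in the same alternatives, and none fell in any.

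Of 9 expressed thyroid hormone receptor targets, 3 rose and 2 fell with the powder, and none passed without it. Dio1, a deiodinase of thyroid hormone, rose by 2.44 ± 0.46 (limma adjusted p = 0.0028), Bcl3 rose by 1.66 ± 0.33 (limma adjusted p = 0.00356), and Me1 (malic enzyme) also rose. Thrsp, a lipogenic gene (Spot 14), fell by -1.83 ± 0.35 (limma adjusted p = 0.00304), and Klf9 fell by -0.94 ± 0.26 (limma adjusted p = 0.0204). Thrsp was also lower in KYDS+BGZ_L (9.60 to 16.4 scaled TPM) than in KYDS livers (25.5 to 142.5), at -2.39 ± 0.35 (limma adjusted p = 0.00412). The targets that passed thus did not move in 1 direction, and with no scaling of TPM 4 rose and none fell with the powder, and 6 rose without it. In the other 3 alternatives 2 rose over nuclear genes, 3 rose and 1 fell with the covariate, and 2 rose and 2 fell without the 3 libraries, all with the powder.

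Of 11 expressed targets of the estrogen-related receptors, 4 rose with the powder and none fell, all genes of respiration and ATP synthesis: Ndufa4 (1.65 ± 0.38, limma adjusted p = 0.00776), Cycs (1.22 ± 0.30, limma adjusted p = 0.0106), Atp5f1b (1.11 ± 0.31, limma adjusted p = 0.0195) and Cox4i1 (1.10 ± 0.37, limma adjusted p = 0.0462). Without the powder 1 rose, citrate synthase (Cs, 0.74 ± 0.22, limma adjusted p = 0.0492). None of the 11 passed in either comparison over nuclear genes or without the 3 libraries of lowest mitochondrial share, 2 rose with the powder and none without it with the covariate, and 5 and 8 rose with no scaling.

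Among 10 expressed LXR targets, Srebf1, the inducer of fatty acid synthesis, rose with the powder (1.81 ± 0.49, limma adjusted p = 0.0163) and without it (2.04 ± 0.49, limma adjusted p = 0.0223), as did Scd, a desaturase, without it (3.15 ± 0.52, limma adjusted p = 0.00216). Scd had a median of 0.032 scaled TPM in CON livers, 1 of them at 0, so its fold change depends on the 0.5 added before log2. Of 6 expressed targets of PPAR gamma or delta, the lipid droplet genes Plin2 (1.36 ± 0.35, limma adjusted p = 0.0122) and Plin5 (1.23 ± 0.34, limma adjusted p = 0.017) and the lipase inhibitor Angptl4 (2.15 ± 0.63, limma adjusted p = 0.0239) rose with the powder, and Plin2 rose (1.24 ± 0.35, limma adjusted p = 0.0418) without it. Of 5 expressed targets of the retinoic acid or vitamin D receptors, Dhrs3, a retinal reductase, rose with the powder (1.07 ± 0.33, limma adjusted p = 0.0308), and none passed without it. With the covariate no LXR target and no target of the retinoic acid or vitamin D receptors passed in either comparison, and 1 PPAR target rose, with the powder. Over nuclear genes 1 LXR target rose with the powder and 2 without it, and no PPAR, retinoic acid or vitamin D receptor target did. Without the 3 libraries 2 LXR targets rose without the powder and nothing else passed in these lists. With no scaling, 3 LXR, 3 PPAR and 1 retinoic acid or vitamin D target rose with the powder, and 6, 4 and 3 did without it.

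The remaining list held 15 nuclear receptors outside the 32, of which 8 were expressed. With the powder 4 of them fell and none rose, a list median of -1.09: Nr1d1 and its relative Nr1d2 (-1.05 ± 0.30, limma adjusted p = 0.0224), Ppara, the fasting-induced fatty acid receptor (-1.99 ± 0.59, limma adjusted p = 0.0269), and Nr1i2, the drug sensor PXR (-1.17 ± 0.38, limma adjusted p = 0.041). Without it 1 fell, Nr1i3 (CAR, -1.37 ± 0.41, limma adjusted p = 0.0497), whereas with no scaling of TPM 4 of the 8 rose. With the powder 1 of the 8 fell in each of the 4 alternatives, and without it none passed in the other 3. Nr3c1, the glucocorticoid receptor gene, named here for its ligand and not by the rule on named genes, averaged 2.49 ± 0.78 scaled TPM in KYDS+BGZ_L and 1.79 ± 0.54 in BGZ_L livers, and 2.88 ± 1.09 in KYDS and 2.00 ± 0.53 in CON livers (SD, n = 5 each, limma adjusted p = 0.308 and 0.361). Among the 32 receptors, 4 of 24 fell with the powder, against 4 of 8 in this list, and the difference of these shares was not tested.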

How the data were processed

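Sequencing of 20 male rat livers was paired-end and the submitters kept read 1 alone, per the labels. Groups and replicate numbers were taken from the sample titles. The members and lists were chosen with earlier results of these data known. Although its name says raw counts, the deposited table holds values with 2 decimals that sum to 914343 to 983962 per library, and it was read as TPM made by the authors. The depth is unknown, and no interval that needs it is given. No aligner or counter is given in the sources used here. Mouse genome builds are listed in the submitters' processing notes while all gene identifiers are of rat, so the build behind the values is unknown.

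TPM was divided by factors from an unweighted trimmed mean of log ratios (30% of ratios and 5% of levels trimmed), between 0.231 and 2.01. The 11869 genes that reached 0.5 scaled TPM in 5 or more libraries were tested on log2(scaled TPM + 0.5) with limma 3.58.1 in R 4.3.3 (trended, robust prior, 16 residual degrees of freedom, all 20 libraries in 1 fit), with Benjamini-Hochberg adjustment over all genes for each of 5 comparisons. Since the values are TPM, the test on counts first planned was replaced by limma. Fold changes on this scale understate the change of low genes. By rule, values per library are given for receptors that passed in any comparison and for the 8 most abundant, and values for up to 4 genes of smallest adjusted p per list. The rule also asked for group ranges of the other receptors. Among the other expressed receptors these are given for Nr2f2 and Nr3c2 and, in KYDS and CON livers only, for Ppard and Nr1h2. Some listed genes, Kat2b and Cd36 among them, were not analysed here. Permutation tests within groups used 1e+05 resamples. Replicates are separate rats, per the labels. Alternative scalings, constants, filters, libraries and covariates were run.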

Additional observations from a re-analysis of the deposited data

Results flagged for a closer look

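Each of the 24 expressed receptors was examined in each of the 4 groups, 96 sets of 5 livers, for a liver whose gap to the nearest other exceeds Dixon's 95% limit on the log2 scale. Chance marks about 1 in 20 such sets, and 3 were marked. Rxrg, a partner receptor more typical of muscle and brain, stood at 2.80 scaled TPM in BGZ_L 2, below the other BGZ_L livers at 3.82 to 4.04. Nr2f2 stood at 1.49 scaled TPM in KYDS 2, below the other KYDS livers at 2.72 to 2.87. Nr2c2 stood at 7.61 scaled TPM in CON 1, above the other CON livers at 0.883 to 1.67. None of the 3 genes passed in a comparison with all 20 livers and the settings first chosen, though Nr2f2 did in some alternatives.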

How the results depend on the processing

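Of 24 receptors, 2 passed in KYDS against CON. The count was 12 with no scaling of TPM, which moved the median of all genes by 1.03 on the log2 scale, 1 with no filter, 1 without CON 2 and BGZ_L 3, and 0 with TPM recomputed over nuclear genes, with the composition covariate, with only the 2 groups in the fit, and without KYDS 3, KYDS+BGZ_L 1 and KYDS+BGZ_L 4, an alternative chosen after seeing the data. Leaving out 1 replicate gave 0 to 5, with 0 without KYDS 3, KYDS 5 or CON 3. It gave 1 without KYDS 1 (Rxra) or CON 2 (Rara). Without CON 4 it gave 5, of which Rxra, Rara and Nr2f6 were higher and Esrrg and Nr2f2 lower. In KYDS+BGZ_L against BGZ_L, 6 passed (2 higher, 4 lower). The count was 3 with no scaling (2 higher, 1 lower, median of all genes 0.63), 1 with TPM over nuclear genes and 1 without the 3 libraries of lowest mitochondrial share (Esrrg in both), and 2 with the covariate. It was 8 with only the 2 groups in the fit (2 higher, 6 lower, with Rarb and Nr2f2 added). A filter of scaled TPM at least 1 in at least 10 libraries gave 7 (Nr2f2 added). Without CON 2 and BGZ_L 3 the count was 5 (Esr1 lost). Leaving out 1 replicate gave 3 to 7, with 3 (Thra, Esrrg and Nr2f6) without KYDS+BGZ_L 1 or KYDS+BGZ_L 4. The other 3 comparisons gave 0 in every alternative run. Over all genes, 744 and 2062 passed in the 2 hydrocortisone comparisons, and 5933 (5867 higher, against 386 of 744) and 2042 (1809 higher, against 1047 of 2062) with no scaling, 92 and 577 over nuclear genes, 23 and 669 with the covariate, and 235 and 258 without the 3 libraries. Of the 10 receptors with values per liver, recomputed in every alternative, no change that had passed turned its direction in any. Changes that had not passed turned as follows. In KYDS against CON, Hnf4a was 1.21 with no scaling, 0.43 with the covariate, 0.0092 without CON 2 and BGZ_L 3, 0.022 without the 3 libraries and -0.30 to 0.032 without 1 replicate, Rarb was 0.62 with no scaling and 0.99 with the covariate, and Thrb was 0.79 and 0.045. In KYDS+BGZ_L against BGZ_L, Hnf4a was 0.16 with no scaling. In KYDS+BGZ_L against KYDS, Nr1h3 was -0.31 with no scaling and -0.13 over nuclear genes, Nr2f6 was 0.036 with the covariate and -0.16 to 0.019 without 1 replicate, and Rara -0.21 to 0.0071 without 1 replicate. In BGZ_L against CON, Hnf4a was 0.027 and Rara 0.032 without CON 2 and BGZ_L 3, Rara was 0.037 with no scaling, Thrb -0.22 over nuclear genes and Esr1 0.044 with the covariate, and without 1 replicate Rara was -0.12 to 0.052, Rarb -0.11 to 0.58 and Thrb -0.13 to 0.23. In the interaction, Nr2f6 was -0.35 with no scaling and Rara -0.19 to 0.026 without 1 replicate. The causes were not tested. With the replicate block the counts were 2, 6, 0, 0 and 0, and the numbers only name samples: 7 of 30 correlations of same-numbered livers were over 0.1 and 2 of 20 livers matched their own number best. The unknown depth limits what can be said of the 8 receptors that were not expressed.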
